A study of Mus musculus with 4 samples.

Results

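The genes described are 34 genes of glycolysis and of pyruvate handling, followed through 4 RNA sequencing libraries of mouse neuroblastoma N2A cells, together with the 2 mutually exclusive exons of the pyruvate kinase gene Pkm. They run from the glucose carriers to pyruvate kinase, and on to lactate, the mitochondrial pyruvate carrier, pyruvate dehydrogenase and pyruvate carboxylase. All 34 were found by the RefSeq identifiers of their transcripts, out of 17037 genes with reads on a named exon, of which 10358 reached the minimum of 1 CPM (counts per 1e6 scaled exon reads) in any library. Of the 34, 32 reached it. Lactate dehydrogenase B (Ldhb) and the pyruvate dehydrogenase kinase Pdk3 had 0 exon reads in Ptbp1 knockdown cells, Ptbp2 knockdown cells and control and 3 reads in double knockdown cells. A count of 0 allows a level of up to 0.0223 CPM in the library with the fewest reads.

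The cells, cultured in DMEM with serum, had taken up an shRNA against Ptbp1 (Ptbp1 knockdown), an shRNA against Ptbp2 (Ptbp2 knockdown), both shRNAs (double knockdown) or a control shRNA (control). Lipofectamine complexes were mixed with suspended cells for 5 hours and the cells were grown for 3 days, with no selection for transfected cells given in the labels. Poly(A) RNA was sequenced strand-specifically as paired reads. Each condition is 1 library, and the 3 knockdowns share 1 control. No spread between replicates could therefore be measured, no test was possible, and intervals below cover counting error only. A difference common to all 3 knockdowns is not 3 separate observations, since any deviation of the control enters each of them. Intervals of CPM may be too narrow even for counting error, since some reads count in more than 1 exon. Ptbp1 and Ptbp2 are paralogous RNA-binding proteins that attach to pyrimidine-rich stretches of pre-mRNA and regulate splicing. The question the design addresses is what the loss of one, the other or both does to transcript levels and exons.

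Glycolysis splits glucose into pyruvate in the cytosol, and phosphofructokinase and pyruvate kinase are among its control points. Pyruvate is either reduced to lactate and exported, or carried into mitochondria, where pyruvate dehydrogenase turns it into acetyl-CoA and pyruvate carboxylase into oxaloacetate. Pyruvate dehydrogenase kinases switch the dehydrogenase off by phosphorylation. The Pkm gene makes 2 pyruvate kinases from 1 primary transcript: exon 9 gives the M1 enzyme of muscle and mature neurons, and exon 10 gives the M2 enzyme of embryonic, proliferating and tumour cells. Ptbp1 is known, with hnRNP A1 and hnRNP A2, to repress exon 9.

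The 2 Pkm exons lie next to each other on chromosome 9, + strand. In mm9, exon 9 is chr9:59522836-59523002 and exon 10 is chr9:59523375-59523541, between exon 8 at chr9:59519728-59519880 and exon 11 at chr9:59525851-59526032. Both have 167 bases, of which 103 are the same in both, or 61.7%. They are shown because the reads below separate them, with capitals at the bases in which they differ, from GENCODE vM21 transcripts on GRCm38.
Pkm exon 9: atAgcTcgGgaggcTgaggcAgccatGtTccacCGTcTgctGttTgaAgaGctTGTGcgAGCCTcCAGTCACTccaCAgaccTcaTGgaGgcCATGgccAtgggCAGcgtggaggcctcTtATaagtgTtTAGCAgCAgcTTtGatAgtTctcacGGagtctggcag
Pkm exon 10: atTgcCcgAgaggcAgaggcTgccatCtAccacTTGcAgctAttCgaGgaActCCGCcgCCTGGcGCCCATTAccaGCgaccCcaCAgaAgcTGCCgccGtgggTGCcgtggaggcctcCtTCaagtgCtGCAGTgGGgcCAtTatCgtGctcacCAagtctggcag

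Reads on named exons came to 127, 151 and 158 M (1 M is 1e6 reads) in the Ptbp1, Ptbp2 and double knockdown and 161 M in control, and the 34 genes held between 1.41% and 1.62% of them in each library. The targeted genes went with the labels. Ptbp1 had 181 CPM in Ptbp1 knockdown cells, 692 CPM in Ptbp2 knockdown cells and 139 CPM in double knockdown cells, against 597 CPM in control. Ptbp2 had 159, 17.7 and 32.8 CPM in the same order, against 73.1 CPM in control, so that its level in Ptbp1 knockdown cells was 2.17 times that of control. The paralogue Ptbp3 had 33.2, 28.2 and 29.6 CPM in the Ptbp1, Ptbp2 and double knockdown and 55.4 CPM in control. Sympathoadrenal markers, those of the lineage of neuroblastoma, summed to 1688 to 1948 CPM over the 13 of 15 that could be measured, all above the minimum, while each summed list of markers of fibroblasts, leukocytes, endothelium, astrocytes, oligodendrocytes and skeletal muscle stayed at or under 8.69 CPM. In bulk RNA, fewer cells with a transcript and less of it per cell cannot be told apart, and with 1 culture per shRNA neither can the shRNA and the culture.

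Exon 9 of Pkm was chosen more often in the libraries with Ptbp1 knocked down than in the other ones. Reads across the junction from exon 8 to exon 9 numbered 2016 in Ptbp1 knockdown cells, 1440 in Ptbp2 knockdown cells and 2046 in double knockdown cells, against 1578 in control. Those from exon 8 to exon 10 numbered 3746 in Ptbp1 knockdown cells, 8407 in Ptbp2 knockdown cells and 3899 in double knockdown cells, against 7887 in control. The exon 9 share was therefore 35.0% (95% Wilson interval 33.8 to 36.2) in Ptbp1 knockdown cells and 34.4% (33.2 to 35.6) in double knockdown cells, against 16.7% (15.9 to 17.4) in control. In Ptbp2 knockdown cells it was 14.6% (13.9 to 15.3). Differences from control were 18.3 percentage points (16.9 to 19.8) for Ptbp1 knockdown cells, -2.0 (-3.1 to -1.0) for Ptbp2 knockdown cells and 17.7 (16.3 to 19.2) for double knockdown cells. The intervals of the Ptbp1 and double knockdown cells overlap each other and lie apart from those of the other libraries.

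**Figure D1:**
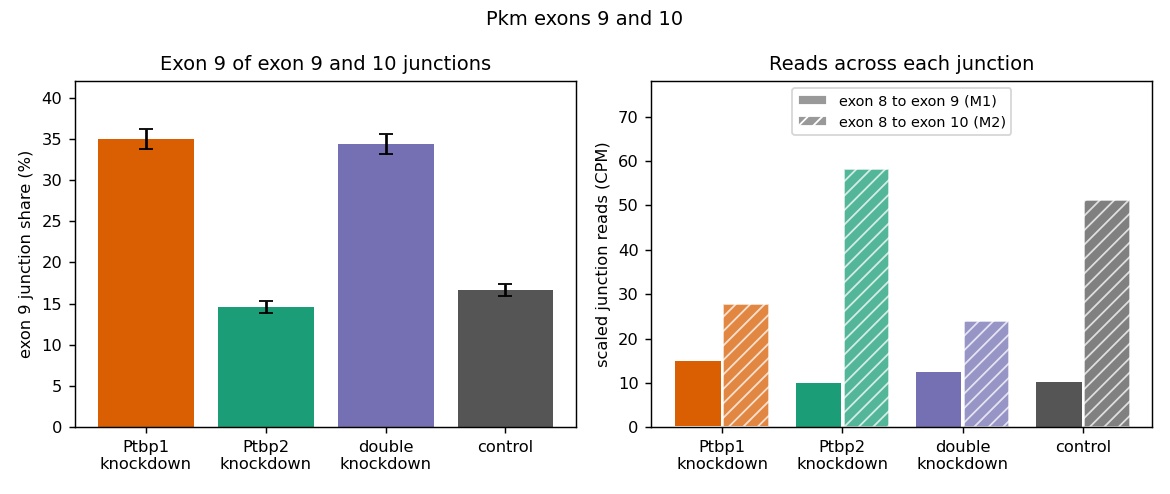
Left, exon 9 share of the reads from exon 8 to exon 9 or 10 of Pkm in each library (%, bars; error bars: 95% Wilson interval of the counts). Right, the scaled reads across each junction (CPM). The Ptbp1 and double knockdown have exon 9 shares of 35.0% and 34.4%, against 14.6% in Ptbp2 knockdown cells and 16.7% in control, and the exon 10 junction has 27.8 and 23.9 CPM in them, against 51.2 CPM in control.

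The scaled reads differed more at exon 10 than at exon 9. They also carry the level of the whole transcript, which was itself lower in the libraries with Ptbp1 knocked down. Over the 6 listed exons upstream of exon 8 its log2 differences were -0.36, -0.03 and -0.50 in the Ptbp1, Ptbp2 and double knockdown. The scaled reads alone therefore do not separate exon choice from transcript level. Scaled between libraries, the exon 8 to exon 10 junction had 27.8 CPM in Ptbp1 knockdown cells, 58.2 CPM in Ptbp2 knockdown cells and 23.9 CPM in double knockdown cells, against 51.2 CPM in control, which is 0.543, 1.14 and 0.467 times control. The exon 8 to exon 9 junction had 15.0, 9.98 and 12.5 CPM, against 10.2 CPM in control, which is 1.47, 0.978 and 1.23 times control. By these junctions exon 10 had the larger share in each of the 4 libraries, with 65.0%, 85.4% and 65.6% in the Ptbp1, Ptbp2 and double knockdown and 83.3% in control. By reads per listed base of each exon, exon 9 had the larger share in Ptbp1 knockdown cells (55.1%) and double knockdown cells (55.9%), and not in Ptbp2 knockdown cells (28.8%) or control (32.9%). Which exon is the more used one with Ptbp1 knocked down thus depends on the measure, while both measures put those libraries above control. The listed bases number 46 for exon 9 and 167 for exon 10, and a junction read counts in both exons it joins. Reads per base may therefore be too high for the shorter stretch, which was not tested.

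A measure of exon 10 that needs no read of exon 9 set the same pair of libraries apart. Reads from exon 8 to exon 10 were 35.2%, 59.8% and 34.3% of those from exon 7 to exon 8 in the Ptbp1, Ptbp2 and double knockdown, and 53.1% in control. On the other side, reads from exon 10 to exon 11 were 45.2%, 71.8% and 43.1% of those from exon 11 to exon 12, and 65.6% in control. Transcripts that joined exon 8 directly to exon 11, leaving out both exons, made up 0.702% to 0.975% of the 3 kinds of junction in the knockdowns and 0.557% in control.

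The exon 9 share may be a low estimate. The deposited exon list holds the first 46 bases of exon 9 only, as the end of a trio, so that reads running past them are not in the counts, and the junction of exon 9 with exon 11 was not analysed here. Reads to exon 9 and to exon 10 together made up 54.2%, 70.0% and 52.4% of those from exon 7 to exon 8 in the Ptbp1, Ptbp2 and double knockdown and 63.8% in control. The deposited transcript FPKM, rescaled to 1 total per library, ordered the libraries differently: exon 9 models held 76.2% of the exon 9 and exon 10 FPKM in Ptbp1 knockdown cells, 0% in Ptbp2 knockdown cells, where no exon 9 model was assembled, and 20.8% in double knockdown cells, against 33.0% in control. In double knockdown cells this share lies below control and the junction share above it.

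Of the proteins known to act on these exons, hnRNP A1, hnRNP A2/B1 and the exon 10 activator Srsf3 differed from control by less than 1.5-fold in each knockdown. Hnrnpa1 had 2489, 3124 and 2392 CPM in the Ptbp1, Ptbp2 and double knockdown, against 3169 CPM in control. Hnrnpa2b1 had 1299, 1893 and 1335 CPM, against 1726 CPM in control, and Srsf3 had 282, 361 and 290 CPM, against 368 CPM in control. All 3 were lowest in the libraries with Ptbp1 knocked down, and their part in the exon choice was not tested.

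A difference in gene level is called below when log2(CPM + 0.1) differs from control by at least 0.585, which is 1.5-fold, and the gene has at least 1 CPM in 1 of both libraries. In Ptbp1 knockdown cells, 1 of 32 genes was called higher and 1 lower, where 11.1% of all genes were called higher and 3.39% lower. In Ptbp2 knockdown cells, none was called higher and 5 were called lower, or 15.6%, where 4.46% of all genes were called higher and 8.39% lower. In double knockdown cells, 2 were called higher and 5 lower, where 7.14% of all genes were called higher and 6.30% lower. Called or not, most of the 32 lay under control: 23 of 32 in Ptbp1 knockdown cells, 28 in Ptbp2 knockdown cells and 22 in double knockdown cells, against 48.6%, 49.1% and 49.5% of all genes. Their median log2 differences were -0.16, -0.14 and -0.20, beside 0.01, 0.01 and 0.00 for all genes tested. Scaling by total exon reads moved the median of all genes up by 0.150 in Ptbp1 knockdown cells and 0.110 in double knockdown cells on the log2 scale, and 16 and 20 of the 32 were then below control, beside 31.6% and 36.0% of all genes.

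**Figure D2:**
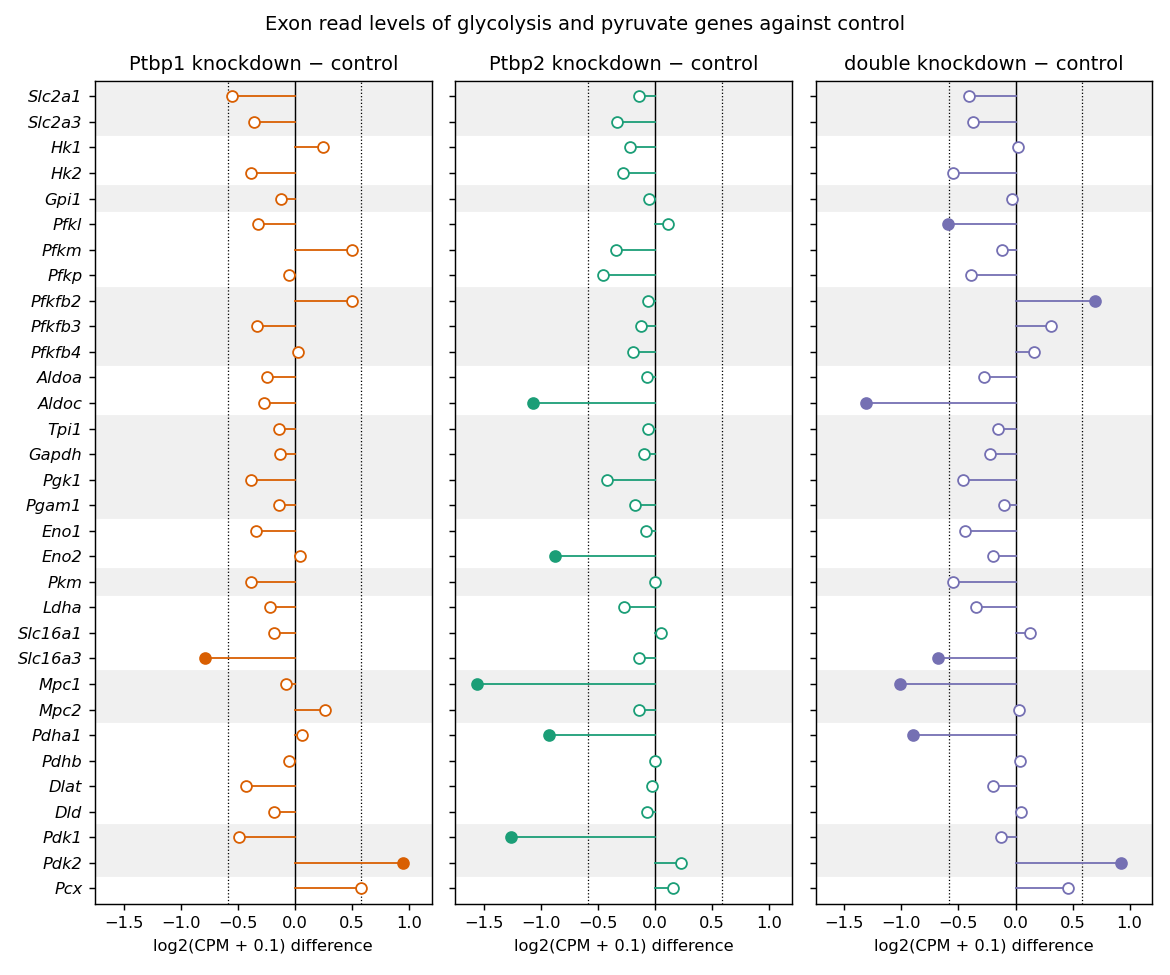
Difference of log2(CPM + 0.1) from control for the 32 genes above the minimum, in pathway order, in the Ptbp1, Ptbp2 and double knockdown. Filled points pass the 1.5-fold threshold (dotted lines), and shading groups genes of 1 step. The filled points are 1 higher and 1 lower in Ptbp1 knockdown cells, 5 lower in Ptbp2 knockdown cells, and 2 higher and 5 lower in double knockdown cells.

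The glucose carriers were below control in each knockdown, short of the threshold. Slc2a3 (Glut3), the high-affinity carrier of neurons, was the more abundant one with 51.4, 52.6 and 51.3 RPKM (CPM per kb of listed exon) in the Ptbp1, Ptbp2 and double knockdown, against 66.1 RPKM in control. Slc2a1 (Glut1) had 18.0, 23.9 and 19.9 RPKM, against 26.4 RPKM in control. Its log2 difference was -0.55 in Ptbp1 knockdown cells, just short of the threshold. Hexokinase, which traps glucose as glucose phosphate, was mainly Hk1, with 120, 86.5 and 102 RPKM against 101 RPKM in control. Hk2, the isozyme of muscle and of many tumours, had 24.2, 26.1 and 21.5 RPKM, against 31.6 RPKM in control.

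**Figure D3:**
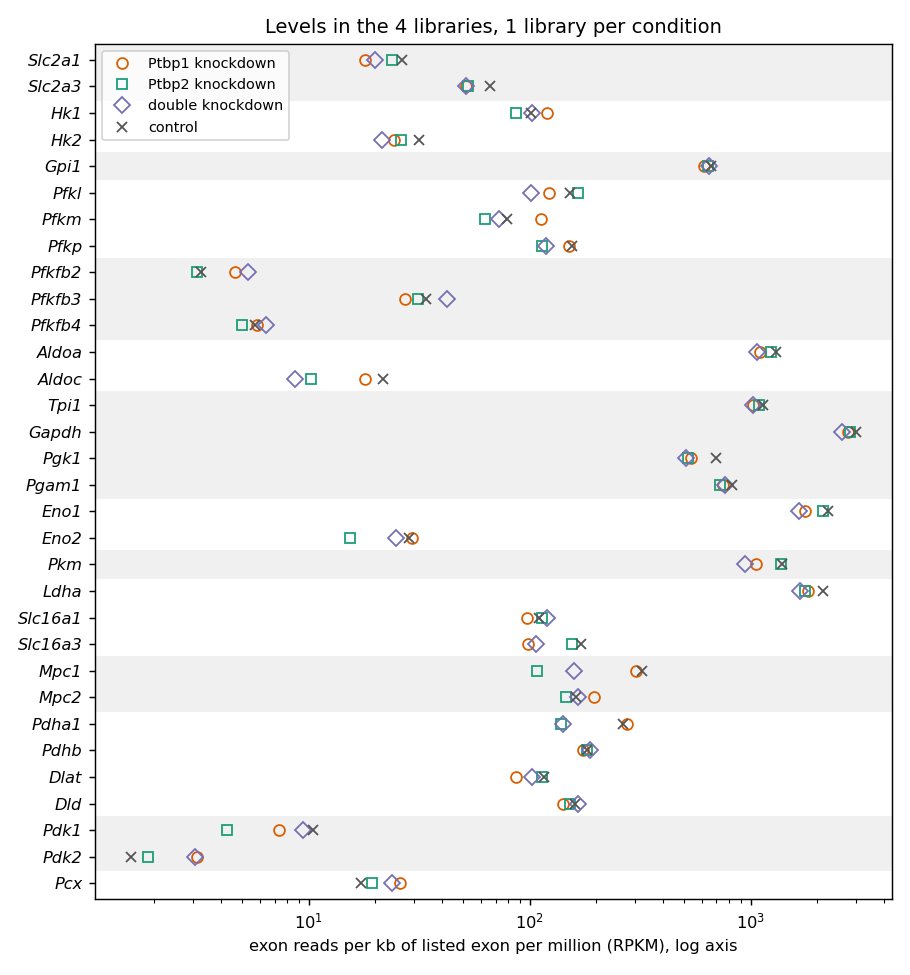
Levels of the 32 genes in each library as RPKM over the listed exons, on a log axis, with 1 symbol per library. Levels span from 1.57 RPKM (Pdk2, control) to 3006 RPKM (Gapdh, control), and for most genes the 4 libraries lie close together on this axis.

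The 3 phosphofructokinase genes, which encode subunits of the committed step of glycolysis, differed in direction. Pfkl, the liver-type subunit, had 122 RPKM in Ptbp1 knockdown cells, 165 RPKM in Ptbp2 knockdown cells and 101 RPKM in double knockdown cells, against 152 RPKM in control. Its log2 difference of -0.59 in double knockdown cells passed the threshold narrowly, and all 20 exons were below control there. With FPKM, junction reads or either other scaling it fell short (-0.48 to -0.57). Pfkm, the muscle-type subunit, had 112, 62.4 and 72.7 RPKM, against 79.1 RPKM in control, 1.41 times control in Ptbp1 knockdown cells. Pfkp, the platelet-type subunit, had 151, 114 and 119 RPKM, against 156 RPKM in control.

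The Pfkfb genes encode bifunctional enzymes that make and break down the fructose bisphosphate signal that activates phosphofructokinase. Pfkfb2 rose in double knockdown cells, to 14.8 CPM (14.2 to 15.4), against 9.07 CPM (8.60 to 9.55) in control, and all 16 exons were above control. In Ptbp1 knockdown cells it had 12.9 CPM and in Ptbp2 knockdown cells 8.71 CPM. Its FPKM difference in double knockdown cells was 0.52 on the log2 scale, under the threshold. Pfkfb3, the family member with the strongest kinase activity and, at 27.1 to 42.0 RPKM, the most abundant one here, had 47.4, 54.6 and 73.6 CPM in the Ptbp1, Ptbp2 and double knockdown, against 59.5 CPM in control. Pfkfb4 had 5.80, 4.96 and 6.38 RPKM, against 5.69 RPKM in control.

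Aldolase was almost wholly Aldoa, with 1107, 1242 and 1074 RPKM in the Ptbp1, Ptbp2 and double knockdown, against 1307 RPKM in control. The brain isozyme Aldoc fell in both libraries that had received the Ptbp2 shRNA, to 10.3 CPM in Ptbp2 knockdown cells and 8.76 CPM in double knockdown cells, against 21.8 CPM in control. That is 0.477 and 0.404 times control, with all 7 exons below control in each. In Ptbp1 knockdown cells Aldoc had 18.1 CPM, 0.828 times control.

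Between aldolase and pyruvate kinase no enzyme other than Eno2 was called. Gapdh, the most abundant of the 34 in each library, had 2747, 2808 and 2586 RPKM, against 3006 RPKM in control. Tpi1 had 1027, 1087 and 1022 RPKM against 1135 RPKM in control, and Pgam1, the phosphoglycerate mutase, had 748, 725 and 769 RPKM against 824 RPKM. Pgk1, the first step that yields ATP, had 537, 523 and 509 RPKM, against 699 RPKM in control. Its log2 differences were -0.38, -0.42 and -0.46 by exon reads, while FPKM put it 0.33 above control in Ptbp1 knockdown cells.

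Enolase was mainly Eno1, with 1770, 2124 and 1658 RPKM in the Ptbp1, Ptbp2 and double knockdown, against 2241 RPKM in control. Its exon reads differed by -0.34 and -0.44 on the log2 scale in the Ptbp1 and double knockdown and its FPKM by -1.12 and -1.32, so that Eno1 passes the threshold in the FPKM only. The neuronal isozyme Eno2 fell in Ptbp2 knockdown cells, to 19.2 CPM, against 35.5 CPM in control, with all 10 exons below control. In Ptbp1 knockdown cells Eno2 had 36.7 CPM and in double knockdown cells 31.0 CPM. The FPKM difference in Ptbp2 knockdown cells was -0.44 on the log2 scale. Aldoa, Gapdh, Tpi1, Pgk1, Pgam1, Eno1 and Ldha have near-identical copies elsewhere in the mouse genome, and their levels are uncertain to the extent that reads were shared with them. FPKM also ranked these genes differently, with Ldha at 467 to 652 FPKM and Gapdh at 180 to 209 FPKM.

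Total Pkm transcript was not called in any knockdown. It had 1063 RPKM in Ptbp1 knockdown cells, 1378 RPKM in Ptbp2 knockdown cells and 945 RPKM in double knockdown cells, against 1380 RPKM in control, which are log2 differences of -0.38, -0.00 and -0.55. The listed exons hold exon 10 and not exon 9, so the level was also taken over the 6 listed exons upstream of exon 8, which both transcripts share. It was then 1196, 1502 and 1081 CPM, against 1533 CPM in control, with log2 differences of -0.36, -0.03 and -0.50. By RPKM its rank among the 34 genes was 5 in Ptbp1 knockdown cells, 4 in Ptbp2 knockdown cells, 6 in double knockdown cells and 4 in control. Summed FPKM of Pkm differed less from control, by -0.03, -0.08 and -0.22 on the log2 scale.

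On the lactate side, the exporter was called and the enzyme was not. Ldha, which reduces pyruvate to lactate, had 1826, 1766 and 1672 RPKM in the Ptbp1, Ptbp2 and double knockdown, against 2131 RPKM in control. Slc16a3 (Mct4), a lactate exporter of glycolytic cells, fell in both libraries with Ptbp1 knocked down. It had 123 CPM in Ptbp1 knockdown cells and 133 CPM in double knockdown cells, against 214 CPM in control, or 0.578 and 0.625 times control, with all 4 exons below control in each. In Ptbp2 knockdown cells it had 194 CPM. Slc16a1 (Mct1), which carries lactate in either direction, had 122, 143 and 151 CPM, against 138 CPM in control.

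Of the 2 subunits of the mitochondrial pyruvate carrier, Mpc1 was called lower with the Ptbp2 shRNA and Mpc2 was not. Mpc1, an obligate subunit, fell to 35.6 CPM (34.6 to 36.6) in Ptbp2 knockdown cells and to 52.2 CPM (51.1 to 53.4) in double knockdown cells, against 105 CPM (104 to 107) in control. These are 0.338 and 0.496 times control, and the 3 exons lay close together at log2 differences of -1.57 to -1.56 in Ptbp2 knockdown cells. In Ptbp1 knockdown cells Mpc1 had 99.6 CPM. The FPKM of Mpc1 is listed at 0 in Ptbp2 knockdown cells and was 9.72 in double knockdown cells, against 14.1 in control. Mpc2, the partner subunit, had 46.5, 34.9 and 39.3 CPM, against 38.5 CPM in control.

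Of the 4 genes of the pyruvate dehydrogenase complex among the 34, 1 differed past the threshold. Pdha1, the catalytic alpha subunit that the kinases phosphorylate, had 262 CPM in Ptbp1 knockdown cells, 132 CPM in Ptbp2 knockdown cells and 135 CPM in double knockdown cells, against 251 CPM in control. It thus fell to 0.525 and 0.537 times control with the Ptbp2 shRNA, with all 9 exons below control, while 8 of the 9 were above control in Ptbp1 knockdown cells. Its partner Pdhb, in the same tetramer, had 156, 162 and 167 CPM, against 162 CPM in control. Dlat, the transacetylase, had 131, 174 and 155 CPM against 177 CPM in control, and Dld, the dehydrogenase shared with other complexes, 202, 217 and 236 CPM against 228 CPM.

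The kinases of the complex were scarce and moved apart. Pdk1, a known target of hypoxia-inducible factor (HIF), had 7.13 CPM in Ptbp1 knockdown cells, 4.15 CPM (3.82 to 4.49) in Ptbp2 knockdown cells and 9.14 CPM in double knockdown cells, against 10.0 CPM (9.55 to 10.6) in control. It fell in Ptbp2 knockdown cells, to 0.419 times control, with all 9 exons below control. Double knockdown cells, which carried the same shRNA, were at 0.911 times control. Pdk2 had 3.02 CPM (2.73 to 3.33) in Ptbp1 knockdown cells, 1.79 CPM in Ptbp2 knockdown cells and 2.94 CPM (2.68 to 3.22) in double knockdown cells, against 1.51 CPM (1.32 to 1.72) in control. It rose in the Ptbp1 and double knockdown to 1.93 and 1.89 times control, on 406 and 480 reads against 233 reads in control. Pyruvate carboxylase (Pcx), which refills the citric acid cycle, had 86.2, 64.1 and 79.0 CPM, against 57.5 CPM in control, and its log2 difference of 0.58 in Ptbp1 knockdown cells fell just short of a call.

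Cassette exons of the 34 genes were compared where they had at least 20 junction reads in both libraries, which held for 329 exons in the comparisons of the Ptbp1 and the double knockdown with control and for 325 in that of the Ptbp2 knockdown. Of all exons tested, 0.242% were called higher and 0.112% lower in Ptbp1 knockdown cells, 0.0353% higher and 0.141% lower in Ptbp2 knockdown cells, and 0.333% higher and 0.239% lower in double knockdown cells. Exon 9 of Pkm is not in this count, since it is no middle exon of a listed trio.

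Among the 31 genes with a cassette exon that had at least 20 junction reads, 1 exon differed from control by 20 percentage points or more, a 23-base exon near the 3' end of Pfkfb3. It lies at chr2:11399663-11399685 in mm9, on the - strand, and its length is not a multiple of 3, so its presence shifts the reading frame of the C-terminal exons, whose alternative splicing is known to give Pfkfb3 proteins with different ends. It is printed because it carries the largest exon difference of the 34 genes, from GENCODE vM21 transcripts on GRCm38.
Pfkfb3 23-base exon: cctttgctagggaaagcctgtct

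The exon was included in 34.5% of transcripts by junction reads (27.8 to 42.0) in Ptbp1 knockdown cells, 0.651% (0.179 to 2.34) in Ptbp2 knockdown cells and 58.3% (51.7 to 64.6) in double knockdown cells, against 2.67% (1.36 to 5.17) in control. Reads that skipped it numbered 110, 305 and 93, against 292 in control. Reads across its upstream junction, which on the - strand is the one at the higher coordinate, numbered 25 in Ptbp1 knockdown cells, 1 in Ptbp2 knockdown cells and 42 in double knockdown cells, against 3 in control. Reads across its downstream junction numbered 91, 3 and 218, against 13 in control. Unequal sides are general in exons of this size: in control the junction at the lower coordinate held a median of 83.6% of the junction reads of 120 exons of 16 to 30 bases on the - strand and 81.4% in 120 on the + strand, against 51.7% and 48.6% in exons of 91 to 400 bases. The mean of both sides may therefore be low, and from the downstream junction alone inclusion was 45.3% (38.5 to 52.2), 0.974% (0.332 to 2.82) and 70.1% (64.8 to 74.9), against 4.26% (2.51 to 7.15) in control. The differences from control were 31.9 points in Ptbp1 knockdown cells, -2.0 in Ptbp2 knockdown cells and 55.6 in double knockdown cells, and the intervals of the Ptbp1 and double knockdown cells do not overlap each other or those of the other libraries. The deposited inclusion ratio, a fraction, was 0.455, 0.013 and 0.691 for it, against 0.041 in control. Reads that leave the 53-base exon just downstream (chr2:11397381-11397433) numbered 23, 14 and 114, against 15 in control, and reads that join both exons 9, 1 and 57, against 0 in control. The downstream and skipping junctions counted above both end at chr2:11396020-11396170, past this 53-base exon. Reads that join both exons, or that enter the 53-base exon without the 23-base one, are thus not in those counts or the inclusion from them.

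**Figure D4:**
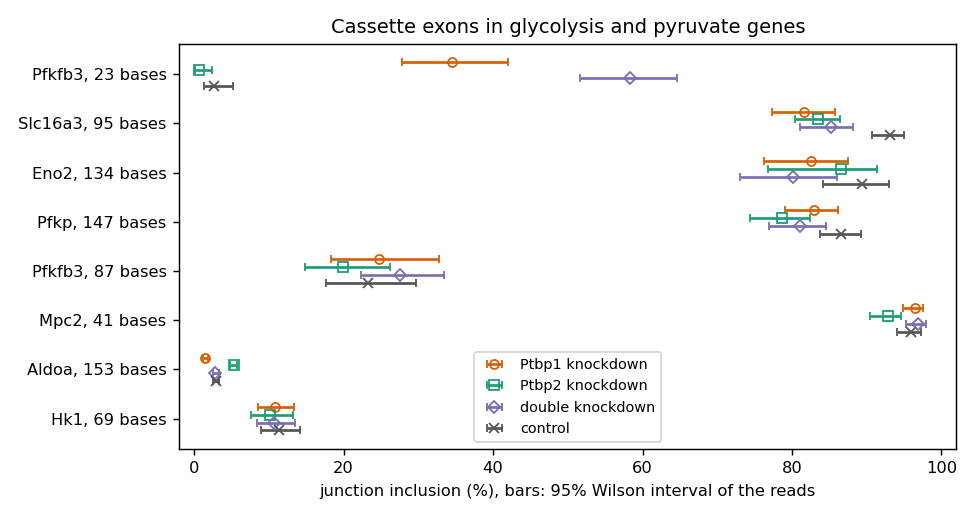
Junction inclusion (%) of 8 cassette exons in the glycolysis and pyruvate genes, by library (symbols; bars: 95% Wilson interval of the reads). The 23-base exon of Pfkfb3 stands at 34.5% and 58.3% in the Ptbp1 and double knockdown, against 2.67% in control, and the other exons stay within 20 percentage points of control.

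Other exons of the 34 genes differed by less than 20 points. A 95-base exon of Slc16a3 (chr11:120815488-120815582) was included in 81.6%, 83.5% and 85.2% of transcripts in the Ptbp1, Ptbp2 and double knockdown, against 93.1% in control. Each knockdown was below control there, by 8.0 to 11.5 points. The 134-base exon of Eno2 stood at 82.5%, 86.6% and 80.2%, against 89.4% in control. An 87-base exon of Pfkfb3 stood at 24.8%, 19.9% and 27.5%, against 23.3% in control, and a 69-base exon of Hk1 at 10.8%, 10.1% and 10.7%, against 11.4% in control. These Pfkfb3 and Hk1 exons lay within the counting intervals of control. A 69-base exon of Pfkfb4 stood at 100%, 87.5% (69.0 to 95.7) and 100%, against 100% (83.9 to 100) in control, on 28, 24 and 30 reads against 20 in control. Its difference of -12.5 points in Ptbp2 knockdown cells rests on 3 skipping reads.

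Calls in pathways that touch glycolysis are to be set beside the shares of all genes called, which were 11.1%, 4.46% and 7.14% higher and 3.39%, 8.39% and 6.30% lower in the Ptbp1, Ptbp2 and double knockdown. None of the 5 genes of serine synthesis and neither of the 2 measurable genes of gluconeogenesis was called in any knockdown. In the citric acid cycle, 1 of 16 genes was called, the succinate dehydrogenase subunit Sdhb, lower in Ptbp2 knockdown cells (391 CPM) and double knockdown cells (418 CPM), against 689 CPM in control. In the NADH shuttles, 1 of 8 genes was called in each comparison. Gpd1, a glycerol phosphate dehydrogenase, was higher in Ptbp1 knockdown cells (1.80 CPM, against 0.935 CPM in control), and Mdh1, cytosolic malate dehydrogenase, was lower in Ptbp2 knockdown cells (375 CPM) and double knockdown cells (429 CPM), against 688 CPM in control. With scaling by total reads Mdh1 was not called in double knockdown cells and Gpd1 was called higher there. Of 7 pentose phosphate genes, G6pdx, the entry enzyme, was called lower in the Ptbp1 and Ptbp2 knockdown, with 137 and 135 CPM against 209 CPM in control. The call in Ptbp1 knockdown cells was not made with scaling by total reads or upper quartile.

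Of the glycolytic isozymes and carriers outside the 34, of which 9 or 10 were measurable, the monocarboxylate carrier Slc16a8 was called higher in each knockdown, at 2.17, 1.13 and 1.85 CPM, against 0.682 CPM in control. These levels lie near the minimum of 1 CPM, and its FPKM was 0.108, 0.0927 and 0.0616, against 0 in control. Ldhd, a lactate dehydrogenase for the D form of lactate, was called higher in Ptbp1 knockdown cells (2.23 CPM) and double knockdown cells (1.41 CPM), against 0.565 CPM in control. Embigin (Emb), an accessory glycoprotein of monocarboxylate carriers, was called lower in Ptbp2 knockdown cells (235 CPM) and double knockdown cells (241 CPM), against 395 CPM in control. The glucose transporter Slc2a6 was called lower in Ptbp2 knockdown cells, with 13.8 CPM against 27.9 CPM in control. Of the other genes of pyruvate dehydrogenase, 2 were measurable, and Pdpr, a regulatory subunit of its phosphatase, was called lower in Ptbp2 knockdown cells, with 19.8 CPM against 33.1 CPM in control.

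In glycogen metabolism, Gbe1, the branching enzyme, was called lower in Ptbp1 knockdown cells (11.3 CPM) and Ptbp2 knockdown cells (10.7 CPM), against 17.1 CPM in control. Pygb, brain glycogen phosphorylase, was called lower in Ptbp1 knockdown cells, with 86.1 CPM against 139 CPM in control. In Ptbp1 knockdown cells Gbe1 was not called with scaling by total reads or upper quartile, and Pygb not with total reads. Pygm, muscle phosphorylase, was called higher in Ptbp2 knockdown cells, with 3.39 CPM against 1.82 CPM in control. None of the 8 genes was called in double knockdown cells.

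Txnip, an arrestin-like protein that restrains glucose uptake, was the gene among 13 measurable regulators of glycolytic genes that was called higher in each knockdown. It had 35.8 CPM in Ptbp1 knockdown cells, 43.5 CPM in Ptbp2 knockdown cells and 62.1 CPM in double knockdown cells, against 23.2 CPM in control. Each of these differences uses the same control library. The neuroblastoma oncogene Mycn was called higher in Ptbp2 knockdown cells, with 13.8 CPM against 7.55 CPM in control, and the HIF prolyl hydroxylase gene Egln1 lower in Ptbp1 knockdown cells, with 27.8 CPM against 42.6 CPM. The Egln1 call was not made with scaling by total reads or upper quartile. Hif1a itself, given although not called, had 263, 215 and 240 CPM, against 281 CPM in control.

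Genes outside glycolysis that HIF is known to induce were in part called lower, and none of them was called higher. Of 12 measurable, 4 were lower in Ptbp1 knockdown cells, 3 in Ptbp2 knockdown cells and 5 in double knockdown cells, where 3.39%, 8.39% and 6.30% of all genes were lower, and the median log2 differences were -0.25, -0.27 and -0.28. Ndrg1 had 0.989, 1.57 and 1.18 CPM in the Ptbp1, Ptbp2 and double knockdown, against 3.72 CPM in control, and Bnip3, a mitophagy receptor named here after its values were seen, 26.9, 27.1 and 33.5 CPM, against 51.0 CPM. Both were lower in each knockdown, against the same control library, so these differences are not independent of each other. Car12, a carbonic anhydrase, had 19.5, 31.9 and 25.9 CPM, against 39.9 CPM in control, and Ankrd37 had 5.07, 8.54 and 5.88 CPM, against 10.2 CPM. Adm, which encodes adrenomedullin, had 1.41, 0.811 and 1.43 CPM, against 1.66 CPM in control, and passed the threshold in Ptbp2 knockdown cells. With scaling by total reads 3 of 12 were lower in double knockdown cells, without Bnip3 and Car12, and with upper quartile 4, without Bnip3. With total reads the medians were -0.10, -0.26 and -0.17. The medians of all genes were then 0.16, 0.01 and 0.12, where they were 0.01, 0.01 and 0.00 with the main scaling. Vegfa, the best known HIF target, had 89.9, 69.1 and 82.6 RPKM, against 78.4 RPKM in control.

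**Figure D5:**
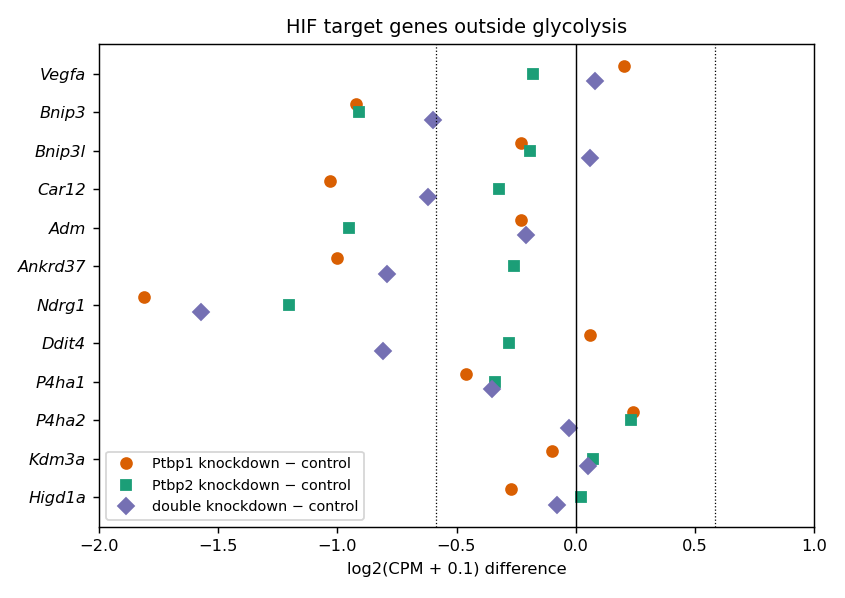
Difference of log2(CPM + 0.1) from control for 12 HIF target genes outside glycolysis, with 1 symbol per knockdown and dotted lines at 1.5-fold. Ndrg1 and Bnip3 lie left of the lower line in each of the 3 knockdowns, and no gene lies right of the upper line.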

How the data were processed

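RNA of 4 N2A cultures, 1 library per condition, was sequenced. Per the submitters' processing notes, CASAVA, TopHat and Cufflinks were used with mm9; versions and settings are not given in the sources used here. The authors deposited Cufflinks FPKM per transcript, on a scale that is not per 1e6 fragments, so every value was rescaled until FPKM weighted by transcript length gave 1e9 within a library. The deposited transcript files also hold a score, not used, and a coverage signal, not used. Per the file headers, SpliceTrap tables list 218362 cassette trios with read counts for 3 junctions, exon coverage (a signal of reads per 100 bases of exon, from which 100.0% of values gave whole reads within 0.01) and an inclusion ratio, which is a fraction; the authors' coverage, counts and fraction were used.

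Genes were named through RefSeq identifiers, with symbols from the RefSeq table of GRCm38.p6, and trios through their splice sites (94.2% named). A gene's exon reads were summed over distinct middle exons, in which a junction read counts in both neighbouring exons, scaled by median of ratios over genes with at least 100 reads in each library, and given per 1e6 reads (CPM) or also per kb (RPKM). Overlapping variants of an exon count as distinct exons. Intervals of CPM are Poisson bounds on these sums and treat every count as a separate read, so they may be too narrow. Inclusion is the mean of both junctions of an exon over that mean plus the skipping reads; the junction listed first is the one at the lower coordinate on either strand, as checked on junctions listed in 2 trios. The calling code was tested on simulated counts. Genes named with values are those called, the most abundant isozyme of a step and Pkm, and at most 4 called genes of each further list; Bnip3, Hif1a, Vegfa, Hnrnpa1, Hnrnpa2b1 and Srsf3 were added after their values were seen, and 1 gene of a further list is not reported here. The 34 genes and all lists were chosen with earlier results of these data known. The exon 9 share was planned from both junctions of each exon and rests on the upstream ones, since the exon 9 to exon 11 junction was not analysed here. The alternatives were other scalings, pseudocount, fold, minimum, FPKM and, chosen after seeing the data, distinct junction reads, the junction at the lower coordinate alone and the Pkm exons upstream of exon 8. Python 3.11.15 with pandas 2.3.3, numpy 2.4.6 and scipy 1.17.1 was used.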

Additional observations from a re-analysis of the deposited data

How the results depend on the processing

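The 14 gene calls kept their direction under every alternative run: 14 still passed with a pseudocount of 1, 13 with upper-quartile scaling, 13 with distinct junction reads (added after seeing the data), 12 with total-read scaling and 10 with FPKM. The calls lost with FPKM were Eno2 in the Ptbp2 knockdown (-0.44) and Mpc1 (-0.49), Pfkfb2 (0.52) and Pfkl (-0.57) in the double knockdown, and with total-read scaling Pfkl (-0.48) and Slc16a3 (-0.57) in the double knockdown. Of the calls kept with FPKM, those of Pdk2 rest on an FPKM listed at 0 in control, where its exon reads numbered 233. That of Mpc1 in the Ptbp2 knockdown rests on an FPKM listed at 0 in that library, where its exon reads numbered 5136. In the Ptbp1 knockdown, genes called higher numbered 4 with total-read scaling, 2 with upper-quartile scaling, 2 with junction reads, 4 at 5/4-fold and 0 at 2-fold, against 1 as reported, and genes called lower 10 at 5/4-fold, 0 at 2-fold and 2 with FPKM, against 1. In the Ptbp2 knockdown 9 were lower at 5/4-fold and 3 at 2-fold, against 5. In the double knockdown 0 were higher at 2-fold and 1 with FPKM, against 2, and 3 were lower with total-read scaling, 13 at 5/4-fold and 2 at 2-fold, against 5. With total-read scaling the medians were -0.01 in the Ptbp1 knockdown and -0.09 in the double knockdown, beside 0.16 and 0.12 for all genes. Exon coverage gave exon 9 shares of 55.1%, 28.8% and 55.9% in the Ptbp1, Ptbp2 and double knockdown and 32.9% in control; FPKM gave 76.2%, 0% and 20.8%, and 33.0% in control. At 10 points instead of 20, 2 exons were called in the Ptbp1 knockdown and 1 in the Ptbp2 knockdown. From the junction at the lower coordinate alone (added after seeing the data), 2 exons were called in the double knockdown, the 95-base Slc16a3 exon being the added one. Where no value above shows it, the cause of a difference was not tested. The exon 9 share from downstream junctions and from inclusion ratios was not run, since exon 9 is no middle exon of a listed trio. Low depth limits Pdk2, with 233 reads in control, and several exons, with 300 reads in control for the 23-base Pfkfb3 exon, 188 for the Eno2 exon and 20 for the 69-base Pfkfb4 exon. No paired analysis was possible because each group has 1 library, and for the same reason no library could be left out.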
